A study of Arabidopsis thaliana with 29 samples.

Results

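Seedlings that buffer Ca2+ in the cytosol were set directly against seedlings that buffer it in the nucleus, both after treatment with abscisic acid (ABA). The comparison took 6 of the 29 arrays of the series, chosen by their titles, namely the ABA-treated arrays of *PV-NES* (line numbers 1, 7, 11) and of *PV-NLS* (line numbers 4, 5, 8). *Arabidopsis thaliana* seedlings (Col-0) of these lines express parvalbumin, an animal Ca2+-binding protein. A nuclear export signal keeps it in the cytosol in *PV-NES*, and a nuclear localisation signal keeps it in the nucleus in *PV-NLS*. All 6 samples were grown alike and held on 10 µM ABA for 5 days, so the values below are levels after ABA and not responses to it. Wild type (WT) had 1 ABA-treated array, which carries no parvalbumin. The same 6 lines also gave arrays of untreated seedlings and of seedlings treated with 50 µM methyl jasmonate (MeJA) or 1 µM ACC, the precursor of ethylene. The 3 arrays of a genotype are 3 independent transgenic lines, so their spread holds the differences between lines as well as between cultures. The promoter that drives parvalbumin is not given in the sources used here, no probe set is known here to measure parvalbumin, and the buffering itself was therefore not checked in these arrays.

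Ca2+ acts as a second messenger in plant cells, where a stimulus raises free Ca2+ in the cytosol or the nucleus and sensor proteins such as calmodulins, calmodulin-like proteins and Ca2+-dependent kinases pass the signal on to transcription. ABA is the hormone of water deficit and seed dormancy. It binds soluble receptors, releases protein kinases from inhibition and raises transcripts of protective proteins, among them the late embryogenesis abundant (LEA) proteins. A Ca2+ buffer dampens such rises in the compartment in which it sits. Comparing the *PV-NES* lines with the *PV-NLS* lines thus asks whether transcripts differ with the compartment that is buffered while the hormone is present.

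The 6 arrays were alike. Across all genes, Pearson's r was 0.992 to 0.994 between the 3 *PV-NES* arrays, 0.991 to 0.996 between the 3 *PV-NLS* arrays and 0.989 to 0.994 between an array of 1 genotype and an array of the other. The WT array gave 0.988 to 0.992 with the *PV-NES* arrays and 0.992 to 0.997 with the *PV-NLS* arrays. Genes are not independent replicates, and these coefficients describe the arrays only. Markers of tissues were looked at next, and genes that ABA induces are given further on. In all gene lists, the members called measured are those that could be matched by name through the annotation used here. Other members may still lie among the probe sets tested without a gene's name. The 7 measured nuclear genes of the light-harvesting and photosystem proteins, which mark green tissue, had mean log2 signals of 11.05 to 11.13 in *PV-NES*, against 11.06 to 11.17 in *PV-NLS*. Root and root hair markers, of which 4 of 35 listed were measured, gave 7.07 to 7.45 in *PV-NES*, against 6.64 to 7.26 in *PV-NLS*. The guard cell list gave 4.00 to 4.42 in *PV-NES*, against 4.2 to 4.29 in *PV-NLS*, so the ranges of all 3 marker lists overlapped. Only 3 of the 10 guard cell genes, SPCH, MUTE and FMA, could be matched by name. KAT1, SLAC1 and GORK could not, which does not show that the array lacks them. A microarray cannot tell fewer cells of a type from less RNA per cell.

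No gene passed the test between the ABA-treated genotypes. Of 22588 genes tested with limma, 0 were at least 2-fold higher in *PV-NES* and 0 were lower (fold above 2, that is a log2 difference beyond 1, with an adjusted p under 0.05, 0% of all genes in either direction). At an unadjusted p under 0.05 and the same fold, 31 genes (0.137%) were higher in *PV-NES* and 6 (0.0266%) were lower, of which 15 and 3 have a gene name. With the methods' t-test and Benjamini-Hochberg adjustment the counts were 0 and 0, and unadjusted they were 8 higher and 5 lower. A single probe set, which the annotation used here pairs with no gene, had an adjusted p under 0.05 at any fold. It stood at 3.05, 3.17 and 3.08 in *PV-NES*, against 3.93, 3.84 and 3.71 in *PV-NLS* and 3.50 in WT, all dim signals, and its difference of -0.73 was under 2-fold (adjusted p = 0.017, limma).

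The difference between the genotypes was small for nearly all genes. The middle 98% of genes lay between -0.47 and 0.59 in log2 units of *PV-NES* minus *PV-NLS*, with a median of -0.01. The median standard error of a difference was 0.138, and the 95% interval of a gene reached a median of 0.285 to either side of its difference. For 97.4% of genes (22010 of 22588) that interval lay wholly between -1 and 1, so a difference of 2-fold or more was outside it. For the other genes the interval reached past 1 or -1.

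**Figure D1:**
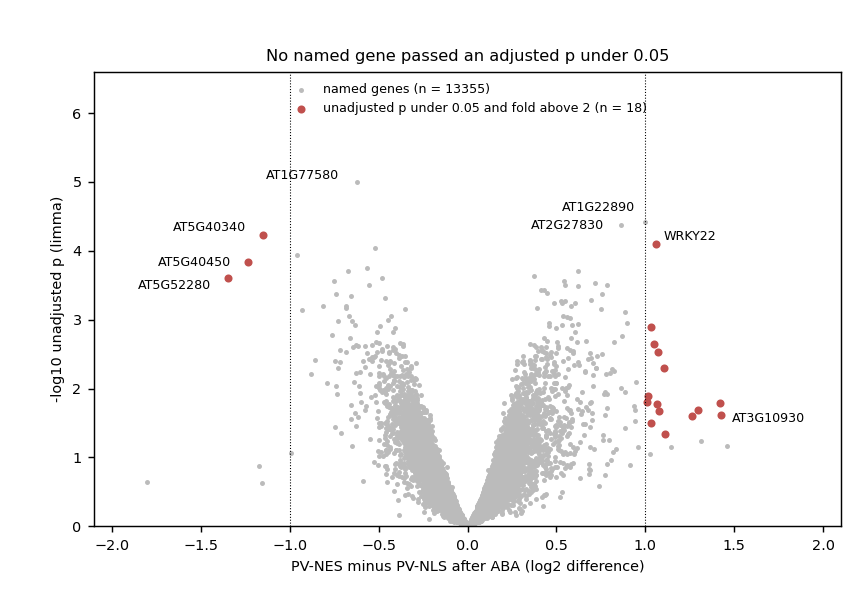
Each point is 1 of the 13355 named genes, plotted by its difference of *PV-NES* minus *PV-NLS* after ABA (x, log2 units) and the unadjusted limma p of that difference (y, -log10). Red points are the 18 named genes past a fold of 2 at an unadjusted p under 0.05, 15 to the right and 3 to the left, none of which passed an adjusted p under 0.05.

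The named genes of smallest p are given next as the ends of this comparison, and none of them passed the test. On the higher side, the 12 genes had differences of 0.38 to 1.06 and adjusted p of 0.116 to 0.168. On the lower side, the 12 genes had differences of -1.35 to -0.48 and adjusted p of 0.114 to 0.176. In all 24 the 3 arrays of *PV-NES* lay apart from the 3 of *PV-NLS*. Over all genes such a separation was also seen for 8.69% on the higher side and 8.39% on the lower side, and the 24 genes were picked by their p, so it adds nothing to them.

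WRKY22, a transcription factor of the defence response, had 6.40, 7.20 and 6.62 in *PV-NES*, against 5.83, 5.32 and 5.89 in *PV-NLS*. The WT array had 5.10, below all of them, and the lowest *PV-NES* array was above the highest *PV-NLS* array. The difference was 1.06, or 2.08-fold (95% interval 0.60 to 1.52, adjusted p = 0.116). AT1G22890 had 5.82, 6.21 and 5.73 in *PV-NES*, against 4.93, 5.12 and 4.71 in *PV-NLS*. Its groups did not overlap, WT at 5.12 was level with the upper *PV-NLS* array, and the difference was 1.00 (0.59 to 1.41, adjusted p = 0.116). AT2G27830 had 7.65, 8.37 and 7.55 in *PV-NES*, against 7.01, 6.86 and 7.10 in *PV-NLS* and 6.18 in WT, a difference of 0.86 (0.51 to 1.22, adjusted p = 0.116). The other 9 genes on this side are AT5G42200, AT4G21450, AT5G60680, AT3G15760, AT2G24550, AT3G06780, AT3G18560, AT1G55000 and AT5G13810. Of these, AT4G21450 had the narrowest spread, with 8.38, 8.37 and 8.37 in *PV-NES* against 8.01, 7.97 and 8.01 in *PV-NLS*, but its difference was only 0.38.

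On the lower side, 3 genes had differences beyond 2-fold. They were dim, with a median log2 signal over all arrays of 3.47, against 4.94 for all named genes, and no detection calls were used. AT5G52280, annotated as similar to a hyaluronan-mediated motility receptor, had 2.98, 3.14 and 3.71 in *PV-NES*, against 5.03, 4.89 and 3.95 in *PV-NLS* and 5.05 in WT. The *PV-NLS* array of line 8 was the lowest of its group and the nearest to *PV-NES*, yet still above all 3 *PV-NES* arrays. The difference was -1.35, or 2.54-fold (95% interval -1.99 to -0.70, adjusted p = 0.154). AT5G40450, annotated as similar to an A-kinase anchor protein, had 3.56, 3.36 and 3.92 in *PV-NES*, against 5.15, 4.87 and 4.52 in *PV-NLS* and 5.27 in WT, a difference of -1.23 (-1.80 to -0.67, adjusted p = 0.154). AT5G40340, which encodes a protein with a PWWP domain, had 2.80, 2.62 and 2.70 in *PV-NES*, against 4.15, 4.39 and 3.02 in *PV-NLS* and 4.58 in WT. Its difference was -1.15 (-1.63 to -0.67, adjusted p = 0.116), and line 8 was again the *PV-NLS* array nearest to *PV-NES*. Without that array the difference of AT5G40340 was -1.57 and passed the test (adjusted p = 0.000276), and it was the only named gene called when 1 of the 6 arrays was left out.

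The remaining genes on the lower side stayed under 2-fold. AT1G77580 had the smallest p of all named genes, with 4.43, 4.43 and 4.68 in *PV-NES* against 5.24, 5.17 and 5.01 in *PV-NLS* (difference -0.62, adjusted p = 0.114). AT5G55660, a chromatin-associated protein with a DEK domain, had 5.26, 4.67 and 5.39 in *PV-NES* against 6.23, 6.11 and 5.86 in *PV-NLS* (difference -0.96, adjusted p = 0.132). WSD1, a wax ester synthase, had 2.6, 2.89 and 2.70 in *PV-NES* against 3.29, 3.24 and 3.21 in *PV-NLS*, all dim signals (difference -0.52, adjusted p = 0.121). WT was above both genotypes in each, at 5.34 for AT1G77580, 6.41 for AT5G55660 and 3.32 for WSD1. The other genes of this side were AT2G42270, AT5G44310, AT4G39840, AT4G26190, AT4G38100 (CURT1D, a protein of curved thylakoid membranes) and AT3G24080, with differences of -0.75 to -0.48.

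**Figure D2:**
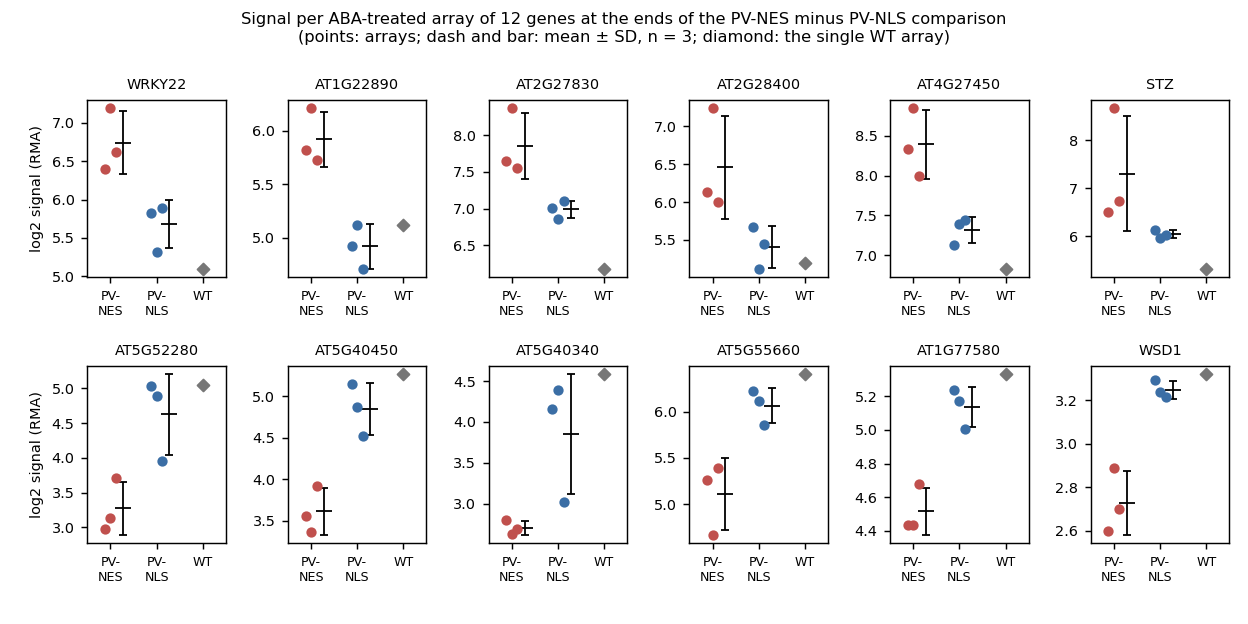
Log2 RMA signal (y) of 6 genes with higher (top row) and 6 with lower (bottom row) signals in *PV-NES* than in *PV-NLS*, in the ABA-treated arrays of *PV-NES* (red), *PV-NLS* (blue) and WT (grey diamond, 1 array). Points are arrays of single lines and bars are mean ± SD (n = 3). In the top row the *PV-NES* array of line 7 is the highest of its group in each panel, and WT lies within the *PV-NLS* range or beyond it on the side away from *PV-NES*.

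The single WT array lay on the *PV-NLS* side at both ends. Of the 12 higher genes it was within the range of the 3 *PV-NLS* arrays for 5 and beyond it, away from *PV-NES*, for 7. The counts were the same, 5 and 7, for the 12 lower genes. These genes were picked by the distance of *PV-NES* from *PV-NLS*, so this is a description. Set against that WT array in the same fit, *PV-NES* had 29 genes called higher (0.128%) and 8 called lower (0.0354%). *PV-NLS* had 0 called in either direction (0%), and 6 higher and 0 lower at an unadjusted p under 0.05 with the fold. Both comparisons rest on 1 WT array, whose spread was not measured and is assumed to be that of the other groups, and whether their counts differ was not tested. WRKY22 was 1.64 above WT in *PV-NES* and 0.59 above it in *PV-NLS*. AT5G40340 was -1.88 from WT in *PV-NES*, against -0.73 in *PV-NLS*.

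The genes beyond 2-fold on the higher side leaned on 1 line. In all 15 named genes with an unadjusted p under 0.05 and a fold above 2, the *PV-NES* array of line 7 was the highest, and in 9 of them it stood more than 1 log2 unit above both other *PV-NES* arrays. STZ, a zinc finger repressor of stress responses, had 6.51, 8.67 and 6.73 in *PV-NES*, against 6.13, 5.97 and 6.02 in *PV-NLS* and 5.32 in WT. Its groups did not overlap, its difference was 1.26 (95% interval 0.17 to 2.35, adjusted p = 0.465) and it was 0.58 without line 7. CML38, a calmodulin-like Ca2+ sensor, had 4.02, 6.65 and 3.61 in *PV-NES*, against 3.72, 3.81 and 3.65 in *PV-NLS*. Its groups overlapped, and the difference of 1.03 (adjusted p = 0.491) was 0.09 without line 7. AT3G10930 had 4.29, 7.54 and 4.08 in *PV-NES* against 4.62, 4.1 and 2.92 in *PV-NLS*, and its difference of 1.42 was 0.31 without line 7. Without this array, the counts past the unadjusted p and fold were 10 in place of 31 on the higher side, and 11 in place of 6 on the lower side. These counts moved with the other arrays as well. They were 81 higher and 9 lower without *PV-NES* line 1, 60 and 9 without *PV-NES* line 11, 32 and 13 without *PV-NLS* line 4, 20 and 6 without *PV-NLS* line 5 and 39 and 12 without *PV-NLS* line 8. The *PV-NES* array of line 7 had r of 0.989 to 0.993 with the other 5 arrays.

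WRKY22, AT1G22890 and AT2G27830 depended less on that line, with differences of 0.83, 0.85 and 0.61 without it. AT2G28400, annotated with a domain of senescence regulators, was beyond 2-fold too, with 6.13, 7.24 and 6.0 in *PV-NES* against 5.67, 5.12 and 5.45 in *PV-NLS*. AT4G27450, annotated as similar to an aluminium-induced protein, had 8.34, 8.85 and 7.99 in *PV-NES* against 7.13, 7.39 and 7.44 in *PV-NLS*. Both *PV-NLS* ranges were below every *PV-NES* array, and the differences of 1.05 and 1.07 were 0.66 and 0.85 without line 7. BHLH101, a transcription factor of the iron deficiency response, had 7.74, 8.93 and 8.39 in *PV-NES* against 7.24, 6.97 and 7.61 in *PV-NLS* (difference 1.08, adjusted p = 0.45). AT4G36700, a cupin protein, had 5.05, 6.25 and 6.21 in *PV-NES* against 4.64, 4.88 and 4.94 in *PV-NLS* (difference 1.02, adjusted p = 0.424).

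The count of 0 changed in a fit in which noisier arrays count for less. With weights estimated by limma for each array from the same residuals, 14 genes (0.062%) were called higher in *PV-NES* and 13 (0.0576%) lower, in place of 0 and 0. The named ones were WRKY22 (1.18, adjusted p = 0.00766) and AT2G28400 (1.11, adjusted p = 0.0221) on the higher side, and AT5G52280 (-1.55, adjusted p = 0.00836), AT5G40340 (-1.46, adjusted p = 0.00256), AT5G40450 (-1.28, adjusted p = 0.0188), AT1G65010 (-1.06, adjusted p = 0.00836) and AT3G44050 (-1.03, adjusted p = 0.00766) on the lower side. The weights of the 6 arrays were 1.16, 0.908 and 1.07 in *PV-NES*, against 1.17, 2.65 and 0.490 in *PV-NLS*, so line 8 counted least and line 5 most. Weighted and unweighted fits thus gave different calls from the same arrays.

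Genes of touch and early stress responses, which rise within minutes of a mechanical or wound stimulus, were on the higher side in *PV-NES*. Of 26 listed, 5 were measured under a name, all with differences above 0, and 3 (CML37, EXO and STZ) had *PV-NES* arrays wholly above the *PV-NLS* arrays (8.69% of all genes), while 0 of 5 passed the test. Their median difference was 0.94, beside -0.01 over all genes. The mean log2 signal over the list was 5.10, 6.56 and 5.26 in *PV-NES*, against 4.87, 4.74 and 4.79 in *PV-NLS* and 4.49 in WT, so line 7 was far above the other lines and all 3 were above *PV-NLS*. Without line 7 the median was 0.37. EXO, which promotes cell expansion downstream of brassinosteroids, had 9.13, 10.01 and 9.11 in *PV-NES* against 8.89, 8.51 and 8.84 in *PV-NLS* (difference 0.66, adjusted p = 0.344). WRKY53, a transcription factor of senescence, had 3.46, 4.86 and 4.63 in *PV-NES* against 3.51, 3.25 and 3.37 in *PV-NLS*, which overlapped through line 1.

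Genes of the low-oxygen response leaned the same way. Of 25 listed, 10 were measured, all 10 had differences above 0, 6 had *PV-NES* arrays that lay wholly above the *PV-NLS* arrays (8.69% of all genes), and 0 passed the test. The median difference was 0.32 and it ranged from 0.27 to 0.38 when 1 of the 6 arrays was left out. The mean over the list was 5.19, 5.66 and 5.26 in *PV-NES*, against 4.89, 4.89 and 5.00 in *PV-NLS* and 4.71 in WT, with no overlap. AT4G10270, annotated in a wound-responsive family, had 7.33, 8.34 and 7.41 in *PV-NES*, against 6.53, 6.65 and 6.70 in *PV-NLS* and 5.59 in WT (difference 1.07, adjusted p = 0.441). AT1G33055 had 5.49, 7.31 and 5.13 in *PV-NES* against 4.83, 4.8 and 4.99 in *PV-NLS* (difference 1.1, adjusted p = 0.329). AT3G10040, which is HRA1, a trihelix factor that restrains the low-oxygen response, had 4.11, 4.65 and 3.94 in *PV-NES* against 3.52, 3.25 and 3.86 in *PV-NLS*. The fermentation gene PDC2, a pyruvate decarboxylase, had 7.74, 7.52 and 7.78 in *PV-NES* against 7.53, 7.58 and 7.76 in *PV-NLS*, which overlapped.

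In untreated seedlings both lists lay on the other side. The median difference of *PV-NES* minus *PV-NLS* without hormone was -0.55 for the touch and early stress genes and -0.51 for the low-oxygen genes, beside 0.00 over all genes. There, 0 of 5 touch and early stress genes lay wholly above and 3 wholly below, and 0 of 10 low-oxygen genes lay wholly above and 5 wholly below (over all genes, 7.3% above and 8.75% below). AT4G10270 differed by 1.07 after ABA and by -1.75 without hormone. STZ differed by 1.26 after ABA and by -1.15 without hormone. The interaction contrast, which asks whether the difference between the genotypes was itself different after ABA than without hormone, called 0 genes higher and 0 lower (0%), with 118 and 21 at an unadjusted p under 0.05 and a fold above 2. Its values were 2.81 for AT4G10270 (adjusted p = 0.2), 2.41 for STZ (adjusted p = 0.309), 1.47 for AT1G22890 (adjusted p = 0.176) and 1.22 for WRKY22 (adjusted p = 0.256).

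**Figure D3:**
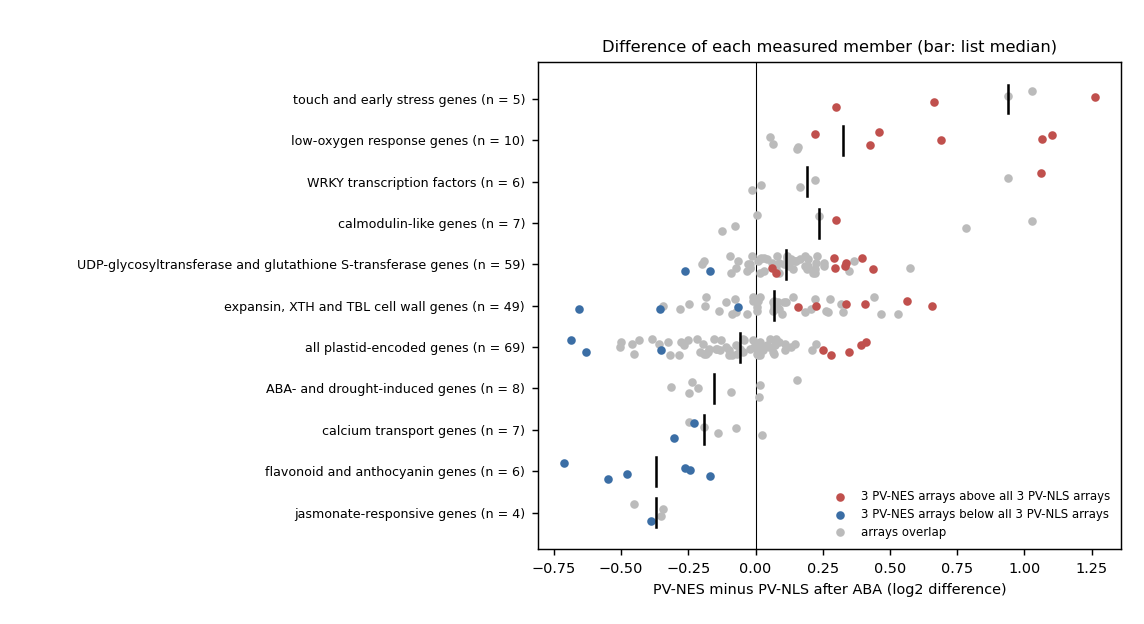
Each point is 1 measured member of a gene list, plotted by its difference of *PV-NES* minus *PV-NLS* after ABA (x, log2 units), and black bars are list medians. Red and blue points are members whose 3 *PV-NES* arrays lie wholly above or below the 3 *PV-NLS* arrays, grey points overlap. All 10 low-oxygen genes lie right of 0, and all 6 flavonoid genes lie left of 0.

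Genes of flavonoid and anthocyanin synthesis were on the lower side. Of 20 listed, 6 were measured, all 6 had *PV-NES* arrays wholly below the *PV-NLS* arrays (8.39% of all genes), 0 passed the test, and the median difference was -0.37 (-0.44 to -0.32 when 1 array was left out). DFR, the dihydroflavonol reductase that opens the anthocyanin branch, had 8.10, 8.48 and 8.25 in *PV-NES*, against 9.17, 8.97 and 8.82 in *PV-NLS* and 9.20 in WT. Its groups lay apart and WT sided with *PV-NLS*, with a difference of -0.71 (95% interval -1.40 to -0.02, adjusted p = 0.532). The anthocyanin glycosyltransferases followed the same order, AT4G14090 with 7.25, 7.08 and 7.64 in *PV-NES* against 7.92, 7.87 and 7.82 in *PV-NLS*. UGT78D2, a flavonoid glucosyltransferase, had 8.43, 8.32 and 8.45 in *PV-NES* against 8.70, 8.71 and 8.58 in *PV-NLS*. UF3GT, UGT78D1 and the malonyltransferase AT5MAT had differences of -0.48, -0.17 and -0.24. The list mean was 7.32, 7.30 and 7.44 in *PV-NES*, against 7.81, 7.78 and 7.67 in *PV-NLS* and 7.88 in WT. Without hormone the median of the list was 0.14.

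Of the listed genes that ABA and drought induce, those measured had small differences between the genotypes. Of 30 listed, 8 were measured and 0 passed the test, and the differences of the 8 ran from -0.31 to 0.15. All 8 had overlapping arrays, as did 18731 of all 22588 genes, so the overlap does not set them apart. AT3G17520, a LEA protein, had 9.29, 9.12 and 8.85 in *PV-NES* against 8.65, 9.06 and 9.50 in *PV-NLS*, a difference of 0.02 (95% interval -0.48 to 0.52). LEA4-5 had 9.81, 9.95 and 9.96 in *PV-NES* against 9.59, 9.97 and 10.12 in *PV-NLS*, a difference of 0.01 (-0.77 to 0.80). The cold-regulated gene COR47, a dehydrin, had 10.77, 10.74 and 10.97 in *PV-NES* against 10.35, 10.67 and 11.01 in *PV-NLS*. COR15A, which protects chloroplast membranes in the cold, had a wider interval of -1.26 to 0.77 around -0.25. Against untreated seedlings of the same genotype, AT3G17520 was 5.76 higher in *PV-NES* (adjusted p = 5.68e-14) and 6.03 higher in *PV-NLS* (adjusted p = 2.8e-14). Genes outside the list rose after ABA too. AT4G36700 rose by 2.36 in *PV-NES* and 1.46 in *PV-NLS*, BHLH101 by 1.68 and 1.37, and AT5G44310 by 0.99 and 1.54. Their differences between the genotypes after ABA were larger, at 1.02, 1.08 and -0.68, and did not pass the test. ABA receptors, phosphatases, kinases and synthesis genes were not measured under a name (0 of 43). The same held for the listed salicylic acid and pathogen defence genes (0 of 16), while 7 genes of the study's own ABA pathway list were measured, with differences of -0.23 to 0.22.

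Most transcripts of Ca2+ signalling had small differences. Of the genes that the study lists as decoding Ca2+ signals, 69 were measured, 7 had *PV-NES* arrays wholly above *PV-NLS*, 3 wholly below and 0 passed the test, with a median of 0.04. These counts are near or under the shares of all genes, 8.69% above and 8.39% below. The measured calmodulin-like genes, 7 in all, had a median of 0.24, which was 0.09 without line 7. CML23 had 4.6, 6.45 and 4.70 in *PV-NES* against 4.67, 4.57 and 4.16 in *PV-NLS*, again with line 7 apart from the rest, and CML42 had 5.85, 6.11 and 5.99 in *PV-NES* against 5.76, 6.09 and 6.09 in *PV-NLS*. The calcium transport list held 7 measured genes, all glutamate receptor-like channels, with 6 differences below 0 and a median of -0.19. GLR3.6, which takes part in wound signals between leaves, had 5.25, 5.22 and 5.44 in *PV-NES* against 5.52, 5.54 and 5.75 in *PV-NLS* (difference -0.30, adjusted p = 0.579).

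Genes of the plastid genome gave a median difference of -0.06 over 69 genes, of which 5 lay wholly above, 3 wholly below and 0 passed the test. Both counts are under the shares of all genes, 8.69% above and 8.39% below, so they do not set these genes apart. The 19 ribosomal protein and RNA polymerase genes had a median of -0.20, with rpl14 at 7.65, 8.20 and 7.93 in *PV-NES* against 8.72, 8.69 and 8.27 in *PV-NLS* and 9.06 in WT (difference -0.63, adjusted p = 0.452). RpoA, a subunit of the plastid-encoded RNA polymerase, had 9.55, 10.08 and 9.68 in *PV-NES* against 10.30, 10.47 and 9.69 in *PV-NLS*, and of the *PV-NLS* arrays that of line 8 was within the *PV-NES* range. The same array was the lowest of its group for rps19, rps3 and rpl22, with differences of -0.50, -0.50 and -0.45. Of the 10 genes of the NDH complex, which carries electrons around photosystem I, 4 (ndhD, ndhG, ndhJ and ndhK) lay wholly above, while ndhA and ndhE had differences of -0.27 and -0.36 with overlapping arrays. The 15 photosystem II genes had a median of -0.06 and 0 genes whose arrays lay apart, with psbZ at -0.33, psbT at -0.28, psbI at -0.01 and psbJ at 0.04. Without line 8 the median over all plastid genes was -0.20, and it was 0.03 without *PV-NLS* line 4.

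Among larger families, 59 UDP-glycosyltransferase and glutathione S-transferase genes, which attach sugars or glutathione to small molecules, had 45 differences above 0 (10965 of 22588 over all genes), a median of 0.11, 8 genes wholly above and 2 wholly below, where all genes had 8.69% above and 8.39% below. The 2 below were the flavonoid enzymes UGT78D1 and UGT78D2. The 49 expansin, XTH and TBL genes of the cell wall had a median of 0.07 with 6 wholly above and 3 wholly below, close to the shares of all genes, from TBL26 at -0.66 to XTH18 at 0.66. Of the 23 cytochrome P450 genes, 2 lay wholly above, again close to the share of all genes, and 0 wholly below, and the median was 0.03. Of 6 measured WRKY factors 1, WRKY22, had arrays that lay apart. That is near the shares of all genes, 8.69% above and 8.39% below, so the count does not set the family apart. The jasmonate-responsive list (4 of 23 measured) had differences of -0.45 to -0.34, with THI2.1 at 3.73, 3.33 and 3.65 in *PV-NES* against 3.43, 4.8 and 3.54 in *PV-NLS*. *PV-NLS* line 5 alone was high there, as it was for JAL23 at 5.94, and without it the median of the list was -0.07. Of the seed reserve genes (3 of 28 measured), PAP85, a storage protein, was high in 1 line of each genotype, at 2.76, 4.78 and 2.68 in *PV-NES* against 2.87, 3.04 and 5.48 in *PV-NLS*.

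The classes that the study itself drew from these arrays were also split between the genotypes. Of its genes raised under cytosolic control, 32 were measured, 22 had *PV-NES* arrays wholly below *PV-NLS* (8.39% of all genes) and the median difference was -0.52. Of its genes lowered under cytosolic control, 66 were measured, 33 lay wholly above (8.69% of all genes) and the median was 0.58. AT5G40340, AT5G40450 and NET1B are in the first class, and WRKY22 and AT4G10270 are in the second. The study chose these classes on the same samples, so they are no independent evidence of a direction, and 0 of their members passed the test in the direct comparison.

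Long genes leaned to the lower side. Among 13286 of 13355 named genes with a gene span in RefSeq (TAIR10.1), the median difference was 0.01 in the shortest of 5 equal classes of span (78 to 1233 bp), 0.02, 0.01 and -0.01 in the next 3, and -0.08 in the longest (3318 to 26499 bp). Genes with arrays that lay wholly below made up 5.11% of the shortest class and 15.5% of the longest, while those wholly above made up 9.89% of the shortest and 3.13% of the longest. The lean was not particular to ABA, as the median after ACC was 0.07 in the shortest class and -0.04 in the longest. The 12 lower genes of smallest p had a median span of 3640 bp, the 12 higher ones 1301.5 bp and all named genes 2105 bp. NET1B, NET1D and NET1A, which encode long coiled-coil proteins that bind actin filaments and were picked here after their values were seen, are examples. NET1B had 4.91, 4.55 and 4.96 in *PV-NES* against 5.52, 5.84 and 5.87 in *PV-NLS* (difference -0.93, adjusted p = 0.199). NET1D and NET1A had differences of -0.76 and -0.56 with arrays that lay apart, while NET3A and NET4B, of the same family, had 0.12 and -0.10 with arrays that overlapped. The control probe sets for GAPDH, whose 3′ minus 5′ signal grows as RNA is degraded or copied short, gave 0.384, 0.513 and 0.309 log2 units in *PV-NES*, against 0.548, 0.764 and 0.538 in *PV-NLS* and 0.816 in WT, with no overlap between *PV-NES* and *PV-NLS*. Those for actin gave 3.70, 3.56 and 3.40 in *PV-NES*, against 3.56, 3.67 and 3.41 in *PV-NLS*, which overlapped. Their part in the result was not tested.

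**Figure D4:**
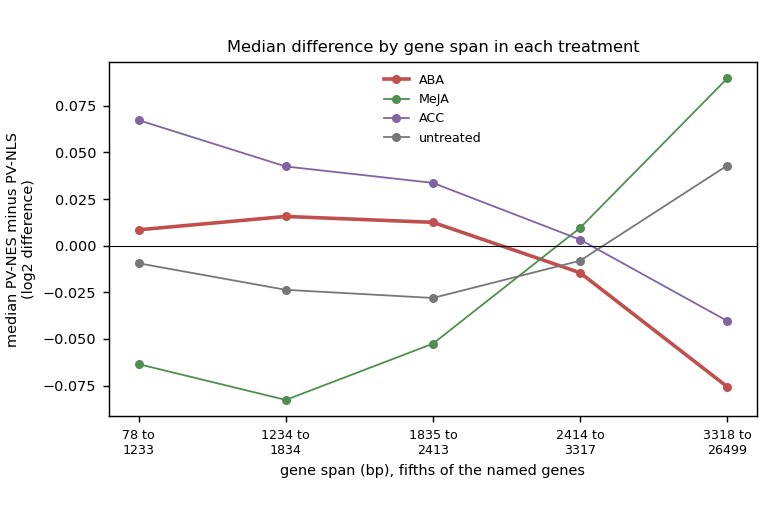
Median difference of *PV-NES* minus *PV-NLS* (y, log2 units) over the named genes in 5 equal classes of gene span (x, bp from RefSeq), after ABA, MeJA and ACC and in untreated seedlings (3 arrays per genotype each). After ABA the median is 0.01 in the shortest class and -0.08 in the longest, and after MeJA it is -0.06 in the shortest and 0.09 in the longest. After ACC it is 0.07 in the shortest and -0.04 in the longest.

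Across the treatments, the difference after ABA resembled that after ACC more than the others. Over 22588 genes the difference of *PV-NES* minus *PV-NLS* after ABA correlated with r of 0.332 with the difference after ACC, -0.231 with that after MeJA and -0.135 with that in untreated seedlings. These are descriptions across genes of the same 6 lines, normalised together. AT5G52280, AT5G40450 and AT5G40340 had differences of -1.57, -1.5 and -1.24 after ACC, close to those after ABA, but -0.25, -0.25 and -0.10 after MeJA and -0.18, -0.32 and 0.12 in untreated seedlings. Of the 12 lower genes of smallest p, 10 were below 0 after ACC too, 6 of them beyond -0.5, and 8 were below 0 after MeJA. All 12 higher genes were above 0 after ACC, 0 of them beyond 0.5, and 5 were above 0 after MeJA. Over all 22588 genes, 12989 kept the sign of their ABA difference after ACC, 332 of them beyond 0.5, and 9447 kept it after MeJA. The interaction of the ABA difference with the ACC difference called 0 genes (25 higher and 4 lower at an unadjusted p under 0.05 with the fold, limma).

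**Figure D5:**
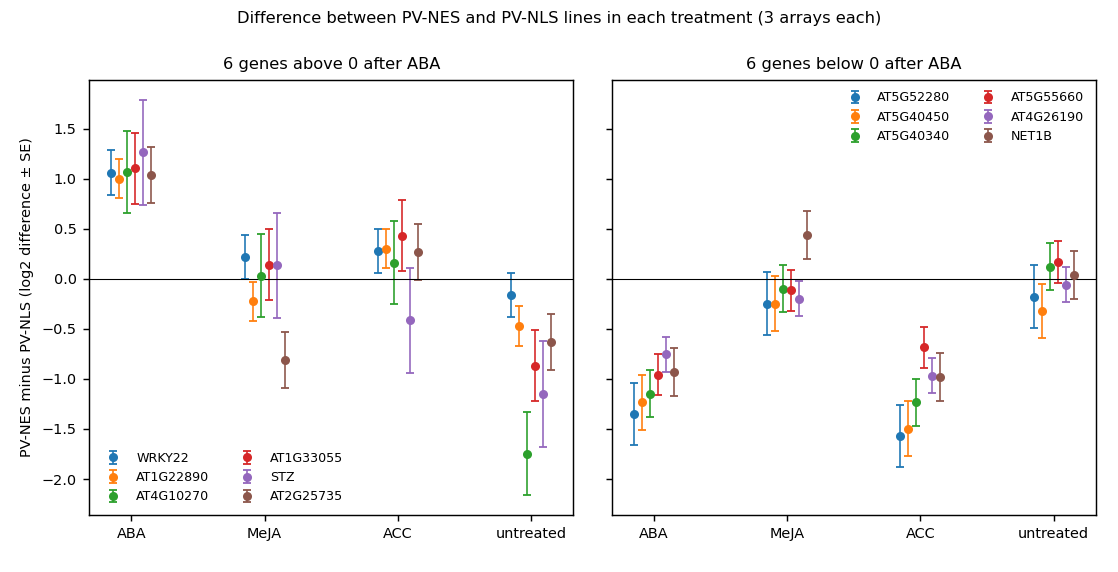
Difference of *PV-NES* minus *PV-NLS* (y, log2 units ± SE of the fit) after ABA, MeJA and ACC and in untreated seedlings (x, 3 arrays per genotype each) for 6 genes above 0 (left) and 6 below 0 (right) after ABA. AT4G10270 and STZ lie below 0 without hormone, and AT5G52280, AT5G40450 and AT5G40340 lie between -1.57 and -1.15 after both ABA and ACC.

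Between ABA and MeJA the difference of the genotypes changed for some genes. The interaction of the ABA difference with the MeJA difference called 47 genes higher (0.208%) and 63 lower (0.279%). The median difference of the 47 genes was 0.40 after ABA and -0.80 after MeJA, and that of the 63 was -0.45 after ABA and 0.67 after MeJA. These genes were picked by the change between the treatments, so a gap between the medians follows from the choice. In the direct comparison of the genotypes after MeJA, 12 of 22588 genes were called higher and 9 lower, against 0 and 0 after ABA. UGT76E12, a glycosyltransferase, averaged 3.78 in *PV-NES*, against 3.43 in *PV-NLS* under ABA, and 3.72 in *PV-NES*, against 5.78 in *PV-NLS* after MeJA (interaction 2.41 ± 0.38 SE, adjusted p = 0.0133). PRK, the phosphoribulokinase of the Calvin cycle, averaged 11.51 in *PV-NES*, against 11.73 in *PV-NLS* after ABA, and 11.002 in *PV-NES*, against 10.15 in *PV-NLS* after MeJA (interaction -1.07 ± 0.18 SE, adjusted p = 0.0158). These counts moved widely with single arrays, from 0 to 193 higher and from 1 to 248 lower when 1 array was left out. They were 1 and 1 without *PV-NES* line 7 and 0 and 1 without *PV-NLS* line 5 after ABA, 15 and 22 without *PV-NES* line 11, 10 and 16 without *PV-NLS* line 4 and 101 and 81 without *PV-NLS* line 8. Of the MeJA arrays, *PV-NES* lines 7 and 11 and *PV-NLS* lines 4 and 5 each left 1 or 2 higher and 1 lower when omitted, whereas *PV-NES* line 1 left 168 and 129 and *PV-NLS* line 8 left 193 and 248. Without either untreated WT array they were 88 and 82, and without single untreated or ACC arrays of the transgenic lines they were 30 to 53 higher and 39 to 68 lower.

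A few genes had differences beyond 2-fold in all 4 conditions, though they did not pass the test after ABA. The largest difference of the whole comparison was in a probe set with no gene name, also picked after its values were seen. It had 6.04, 7.76 and 8.06 in *PV-NES*, against 3.32, 3.03 and 6.71 in *PV-NLS* and 3.50 in WT. *PV-NLS* line 8 alone of its group was high and overlapped with *PV-NES*. The difference was 2.93 after ABA (adjusted p = 0.372), 4.47 after MeJA, 3.96 after ACC and 3.84 in untreated seedlings, and with array weights it was 3.70 after ABA and passed the test (adjusted p = 0.0241). A second unnamed probe set lay on the lower side, at -1.53 after ABA (adjusted p = 0.831, limma). It had 4.24, 3.51 and 3.19 in *PV-NES*, against 3.06, 8.77 and 3.70 in *PV-NLS* and 6.19 in WT. Of the *PV-NLS* arrays only that of line 5 was high, and the groups overlapped. Its differences were -1.73 after MeJA, -2.09 after ACC and -2.22 in untreated seedlings. QQS, an orphan gene that affects starch, AT3G55920 and AT5G06800, all outside the rule for named genes and picked after their values were seen, had differences of -1.16, -1.17 and -1.80 after ABA and between -1.23 and -2.73 in the other 3 conditions. AT5G06800 had 2.97, 6.99 and 3.76 in *PV-NES* against 3.19, 7.23 and 8.70 in *PV-NLS* and 3.27 in WT, with both low and high lines in each genotype. AT3G55920 had 5.93, 4.89 and 4.45 in *PV-NES* against 6.30, 6.39 and 6.11 in *PV-NLS* and 6.21 in WT, so that its groups lay apart and the *PV-NES* lines were the more spread. QQS had 7.55, 5.74 and 5.90 in *PV-NES* against 7.99, 7.73 and 6.93 in *PV-NLS*, and the adjusted p after ABA were 0.675 to 0.765. Unlike these genes, AT4G12490 was beyond 2-fold only after ABA, at 1.46, with -0.97 after MeJA, 0.51 after ACC and -0.47 in untreated seedlings. After ABA its *PV-NES* line 11 alone, at 8.34, stood apart from 4.33 to 4.96 in the other *PV-NES* lines and from 4.37 to 4.46 in *PV-NLS*.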

How the data were processed

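RNA of 29 seedling samples in 12 groups was hybridised to Affymetrix ATH1 arrays. The authors read the image files into R and normalised them by RMA, which made the deposited log2 signals, 1 for each probe set and array. They were used without further normalisation, and the image files were not used here. That the base is 2 was taken from the RMA procedure and the range of the values. The number of arrays limits the precision, and no detection calls were used.

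The 64 control probe sets of 22810 were dropped before testing. The annotation names 1 gene for 13513, several for 503 and none for 8730, and the last 2 kinds were tested without a gene's name. For 147 genes with several probe sets the brightest over all arrays was kept, which left 22588 units, called genes here (13355 named).

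A limma model (3.58.1, R 4.3.3) with 1 mean per group was fitted to all 29 arrays (17 residual and 5.94 prior degrees of freedom), with no block. Differences are *PV-NES* minus *PV-NLS* in log2 units, p were adjusted across all genes after Benjamini and Hochberg, and a gene was called at a fold above 2 and an adjusted p under 0.05. The fit was tested on simulated data. The methods name a Student's test per gene, run as an alternative and called the methods' t-test. Other alternatives were the arrays in the fit, a replicate number or line as block, centring, a filter on dim genes, array weights, a trended prior, single probe sets, thresholds and omission of each array. With 3 arrays against 3, an exact permutation test of 1 gene cannot go below p = 0.1 (two-sided), so none was run.

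Named are the 12 genes of smallest p in each direction, members of lists by mean signal, genes the paper names for ABA and up to 6 genes called by an interaction. Genes past the unadjusted p and fold, other list members and the NET family were added after their values were seen. Members and lists were chosen with earlier results of these data known. Samples were grouped by their titles, which number the replicates by line. No sequence was used.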

Additional observations from a re-analysis of the deposited data

Results flagged for a closer look

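The difference between *PV-NES* and *PV-NLS* was itself different after ABA and after MeJA in a test of that change (limma interaction contrast), with the ABA difference above the MeJA difference for 47 genes and below it for 63. The 6 named genes of smallest p were UGT76E12 (2.41), PRK (-1.07), AT2G28540 (-1.07), AT1G60590 (-1.48), AT5G44170 (1.36) and AT3G19660 (1.09), each as the ABA difference minus the MeJA difference in log2 units. After ABA, UGT76E12 overlapped between the genotypes, while the other 5 had arrays that lay apart (over all genes, 8.69% above and 8.39% below). The 6 genes were picked by a contrast that includes the ABA difference, so this separation is no separate evidence of it. After MeJA the differences were -2.06 for UGT76E12, 0.85 for PRK, 0.65 for AT2G28540, 1.03 for AT1G60590, -0.92 for AT5G44170 and -0.80 for AT3G19660. Without *PV-NES* line 7 or without *PV-NLS* line 5 after ABA, all 6 kept their direction but lost an adjusted p under 0.05. Groups of 3 arrays are too small for a test of single outlying arrays, and none was made.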

How the results depend on the processing

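The absence of calls between ABA-treated *PV-NES* and *PV-NLS* held (0 higher, 0 lower) with only the 6 arrays compared, which include no untreated seedlings. It held too, also for the interaction with untreated seedlings, with the 24 transgenic arrays and with centred arrays. The same was seen for genes above the median signal, with a trended prior and with single probe sets. Array weights gave 14 higher and 13 lower, and 96 higher and 23 lower for the interaction with untreated seedlings. Without a fold limit, or at a fold above 1.5, the counts were 0 higher and 1 lower. At an unadjusted p with the fold they were 31 and 6, and 118 and 21 for that interaction. The methods' t-test gave 8 and 5 unadjusted, and 0 and 0 adjusted (smallest adjusted p = 0.0995).

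When 1 array was left out, 0 genes were higher and 0 to 2 lower. The 1 called without *PV-NLS* line 8 after ABA was AT5G40340, and the 2 called without *PV-NLS* line 8 after MeJA have no gene name. The interaction with untreated seedlings gave 0 higher and 0 to 1 lower, and that with MeJA 0 to 193 higher and 1 to 248 lower. The interaction with MeJA, 47 and 63 as reported, was 88 and 82 with the transgenic arrays, 380 and 258 with array weights, 223 and 241 with no fold limit, 205 and 235 at a fold above 1.5, and 197 and 110 unadjusted.

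The titles give *PV-NES* and *PV-NLS* arrays the same replicate numbers, though the lines differ, and do not say what else such arrays share. Deviations of same-numbered replicates from the group means after ABA correlated at -0.04, -0.02 and 0.19. With the replicate number as a block the counts after ABA stayed 0 and 0, and those of the interaction with MeJA were 97 and 80. With the line as a random block (correlation 0.017) they were 0 and 0, and 54 and 67.

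None of the named genes followed over the alternatives passed the test in the fit reported above. A refit that left such a gene uncalled with the same sign therefore counted as unchanged, whatever the size of its difference. CML38, at 1.03, counted as unchanged at 0.09 without line 7. Counted over each gene in each refit, the differences after ABA kept direction and side of the threshold in 804, passed it in 6 and turned direction in 9. The last were psbJ with array weights (-0.17), and, with 1 array left out, psbJ (-0.25 to 0.20), psbI (-0.36 to 0.18), psbT (-0.76 to 0.016) and NTMC2T6.1 (-0.19 to 0.031). The cause of these changes was not tested.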
